A study of Canis lupus familiaris with 28 samples.

Results

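Blood RNA of 20 dogs with atopic dermatitis (AD) was compared, array by array, with one common reference, a pool of RNA from 13 healthy dogs that were not otherwise in the experiment. The 20 arrays were those whose labels gave the disease state as atopic dermatitis, out of 28 arrays in all. The other 8 arrays held healthy control dogs measured against the same pool, and they were used here to find probes that stood off the pool in healthy dogs too. All dogs were client-owned. The AD dogs were of various breeds and both sexes, and were sampled while signs of disease were visible and after a period without anti-inflammatory drugs. The labels gave no age, sex or breed for a single dog of either group. RNA was taken from the nucleated cells of whole blood. On every array the dog's RNA carried the red dye, Cy5, and the pool the green dye, Cy3. The dyes were never swapped, so a difference between the dyes and a difference between dog and pool cannot be told apart on an AD array alone. Each value below is a log2 ratio of dog over pool, centred on the median of its array, so that 1 is a doubling and 0 the level of the pool. "Called" means an adjusted p of at most 0.05 in limma's moderated test of the mean of the 20 AD arrays against 0. Each dog was 1 array, so the p-values set a mean against the spread between arrays of different dogs. They hold no error for the make-up of the pool, which was 1 RNA, or for the dyes.

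Canine atopic dermatitis is an itchy, relapsing skin disease in which T helper 2 cells, IgE and mast cells respond to allergens from the surroundings. T helper 2 cells are known for IL4, IL5 and IL13, and are drawn to skin by the chemokines CCL17 and CCL22 through the receptor CCR4. Blood carries the cells on their way to the skin, mixed with neutrophils, red cell precursors and platelets, so a level in blood RNA depends on both the cells present and what each cell transcribes. In these bulk samples, fewer cells of a type and less RNA per cell cannot be told apart.

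The array read each transcript with 60-base probes. The sequences below, from the deposited scanner files, belong to genes on which the following results turn, with G and C in capitals because the base composition of a probe moved with its log2 ratio. Positions are those of the file headers, on the canFam3 build. Whether a probe lies in an exon, an intron or a UTR was not analysed here.
NT5C1B (chr17:13860182-13860241, minus strand), the highest of the leading genes described below: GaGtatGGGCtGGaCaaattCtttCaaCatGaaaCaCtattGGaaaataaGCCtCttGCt
CCDC54 (chr33:12685457-12685516, plus strand), the lowest of the leading genes: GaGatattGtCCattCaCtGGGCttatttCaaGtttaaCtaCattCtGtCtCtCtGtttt
RORA (chr30:25322666-25322725, minus strand), whose probe read below the pool in every AD dog: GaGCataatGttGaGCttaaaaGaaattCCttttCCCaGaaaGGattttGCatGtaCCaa
CCL17 (chr2:59001464-59001523, minus strand), the skin-homing chemokine: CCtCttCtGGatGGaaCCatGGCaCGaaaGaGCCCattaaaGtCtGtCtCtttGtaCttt
CCL5 (chr9:37823778-37823837, plus strand), low in healthy dogs too: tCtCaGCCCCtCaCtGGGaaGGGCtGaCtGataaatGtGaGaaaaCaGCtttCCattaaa
DUSP1 (chr4:39590127-39590186, plus strand), an immediate early gene with a probe of middling GC: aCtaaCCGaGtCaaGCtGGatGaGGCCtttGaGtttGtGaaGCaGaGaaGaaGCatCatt
JUNB (chr20:49359917-49359976, minus strand), an immediate early gene with a GC-rich probe: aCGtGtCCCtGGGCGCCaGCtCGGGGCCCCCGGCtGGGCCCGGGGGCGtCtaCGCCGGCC
MSH3 (chr3:26336410-26336469, minus strand), the gene with the widest spread between dogs: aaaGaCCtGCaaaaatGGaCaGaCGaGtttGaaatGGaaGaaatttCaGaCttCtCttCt
The share of G and C was 38.3% in the NT5C1B probe, 35% in those of CCDC54 and RORA, 45% in those of CCL17, CCL5 and DUSP1, 83.3% in that of JUNB and 36.7% in that of MSH3.

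The AD arrays differed in quality. The dog channel was well above background at 51.7% to 87.4% of the array's probes, and the pool channel at 55.0% to 86.3%. On 7 arrays, those of dogs 14 to 20, the dog channel was so at fewer than 65% of probes. Of these 7, 6, dogs 15 to 20, were scanned on the last of the scan days. The pool channel, the same RNA on every array, was low there too, at 55.0% to 60.3% for dogs 15 to 20 and 68.8% for dog 14. The healthy arrays, at 84.3% to 90.3% in the dog channel, were scanned together on a day of their own. Scan day and disease state therefore cannot be told apart between the groups. The share of tested probes at least 2-fold from the pool ran from 0.881% in dog 10 to 20% in dog 14, with a median of 6.11%. It was 6.2% to 15.9% on the last scan day and 0.881% to 20% on the other days. In the healthy dogs it was 0.665% to 5.41%.

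Of 26796 probes tested, 9139 were called in AD dogs against the pool, 34.1% of all. Of the called probes, 4182 were higher in the dogs (15.6% of those tested) and 4957 lower (18.5%). The changes were small. The median absolute log2 ratio was 0.34 among the called probes and 0.18 among all, and only 67 called probes (0.25%) were at least 2-fold from the pool, 13 higher and 54 lower. The count leaned on single slides. It was 3723 without slide 1 (dogs 1 to 4), 5283 without slide 4 (dogs 5 to 8), 6082 without slide 6 (dogs 13 and 14) and 5235 without scan day 4 (dogs 9 to 14). The 2-fold probes numbered 102 without slide 5 (dogs 9 to 12) and 105 without the last scan day.

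A gap from the pool need not belong to the disease. The 8 healthy dogs, tested the same way, gave 1 called probe (0.00373%) over fewer arrays. A probe was therefore named dye-biased where the healthy mean had the same sign as the AD mean and was at least 50% of its size, or was itself called. By this rule 4121 of the 9139 called probes (45.1%) were dye-biased. Of the 67 probes past 2-fold, 26 were dye-biased and 41 were not (0.153% of those tested), 9 higher and 32 lower. Without the arrays of low detection 50 were not, 5 of them higher. When AD and healthy arrays were compared directly in limma, 0 of 26796 probes passed, with a smallest adjusted p of 0.415, although 1752 had an unadjusted p under 0.05. The departures from the pool described below were thus not shown to differ between AD and healthy dogs.

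The genes farthest from the pool in nearly every dog were a mixed set of enzymes, transporters and structural proteins. They were chosen among called, named genes that were not dye-biased, had 1 sign in at least 18 of 20 dogs and were well above background in their brighter channel on at least 18 arrays. Of 234 such genes, 94 were higher and 140 lower. The 12 highest and 12 lowest kept their direction and their call in every alternative in which they were tested. They were chosen for call, sign and size on these same arrays, so this is no independent evidence. Of all 111 called named genes, these 24 included, 55 did so. Among the 24 leading genes 10, NT5C1B and CCDC54 included, were left out by the filter that asks both channels to be above 100. With another background correction (normexp) NT5C1B had a mean of 0.24.

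NT5C1B, a cytosolic nucleotidase that turns AMP into adenosine, stood highest. Its log2 ratio ran from 0.30 in dog 5 through a median of 1.26 to 4.45 in dog 14, above 0 in all 20 dogs, with a mean of 1.80 ± 1.28 (SD, n = 20; 3.48-fold; adjusted p = 0.00015). The 7 arrays of low detection held the 7 highest values, 2.21 to 4.45, and did not overlap with the other 13, 0.30 to 1.37. The pool channel was well above background on only 12 of the 20 arrays, and a second probe of the gene gave -0.14. NT5C1B was also among the probes that differed between slides (adjusted p = 0.0064), and the healthy mean was 0.60. Over the other 13 arrays alone the AD mean was 0.95, and there the gene would meet the rule for dye bias.

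CTSE, the aspartic protease cathepsin E of antigen-processing compartments, had a median of 0.99 and a mean of 0.96 ± 1.11 (SD, n = 20; adjusted p = 0.0039). It was above 0 in 18 dogs and fell as low as -1.94 in dog 18. LARP1B, an RNA-binding protein, rose by a mean of 0.90 ± 0.81 in 19 of 20 dogs (adjusted p = 0.00085), with the healthy mean at -0.05. Of its other 2 probes, 1 was called higher and 1 called lower.

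As measured, the 5 genes CRYBA4, SLC39A2, ENTPD8, COL1A1 and DEGS2 were also above 0 in all 20 dogs. CRYBA4, a lens crystallin, ran from 0.16 to 1.94 with a mean of 0.87 ± 0.49. SLC39A2, a zinc importer, had a mean of 0.80 ± 0.75, and ENTPD8, an ectonucleotidase, 0.80 ± 0.50. COL1A1, a chain of type I collagen, had a mean of 0.73 ± 0.53 and DEGS2, a sphingolipid hydroxylase of epithelia, 0.75 ± 0.68. A second COL1A1 probe was called higher too, at 0.31. For these genes the arrays of low detection gave the larger values. The mean of COL1A1 was 1.31 over those 7 arrays and 0.42 over the other 13, that of CRYBA4 1.31 and 0.63, and that of ENTPD8 1.23 and 0.57. The part of detection in these ratios was not tested. The probes of these 5 genes have 55% to 60% G and C. After the correction for probe GC described below, CRYBA4 and COL1A1 were still above 0 in all 20 dogs. ENTPD8 was above 0 in 19 dogs, SLC39A2 in 17 (mean 0.61) and DEGS2 in 15 (mean 0.55). The remaining genes of the 12, KLHL31, RHBG, ACTL8 and RUSC1, had means between 0.70 and 0.80. RUSC1, with a probe of 71.7% GC, had a mean of 0.45 after that correction and a healthy mean of 0.26. There it would meet the rule for dye bias.

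Among the lower genes, CCDC54, a coiled-coil protein, was lowest and, of the 12, had the smallest spread for its size. It ran from -2.51 in dog 8 to 0.32 in dog 17, with a median of -1.35 and a mean of -1.34 ± 0.72 (SD, n = 20; adjusted p = 1.7e-05). It was below 0 in 19 of 20 dogs, its dog channel was well above background on 16 arrays, and its healthy mean was -0.29. MTMR10, a myotubularin-related protein, had a mean of -1.12 ± 0.94, with dog 16 alone above 0 at 2.09. Of its other 2 probes, 1 was called lower at -0.70 and 1 higher at 0.21. SYTL4, which docks secretory granules, had a mean of -1.08 ± 0.87, with dog 17 alone above 0 at 1.73. The healthy mean of SYTL4 was 0.19 with a range of -1.58 to 3.08, which overlapped the AD values, and a second probe read -0.02.

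CP, the copper-carrying ferroxidase ceruloplasmin, had a mean of -1.10 ± 1.01 (adjusted p = 0.00091) and a healthy mean of 0.01. A second probe of CP was called in the opposite direction, at 0.66, so its probes disagreed. NR3C2, the mineralocorticoid receptor, was below 0 in 19 dogs with a mean of -0.86 ± 0.68. ENPP3, an ectoenzyme known on basophils and mast cells, was below 0 in 18 dogs with a mean of -0.78 ± 0.73, with a lowest value of -3.01 in dog 14. The other lower genes, LSMEM1, HYKK, HOMER1, ARHGAP42, ZNF202 and ABHD12B, had means between -0.87 and -0.76.

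**Figure D1:**
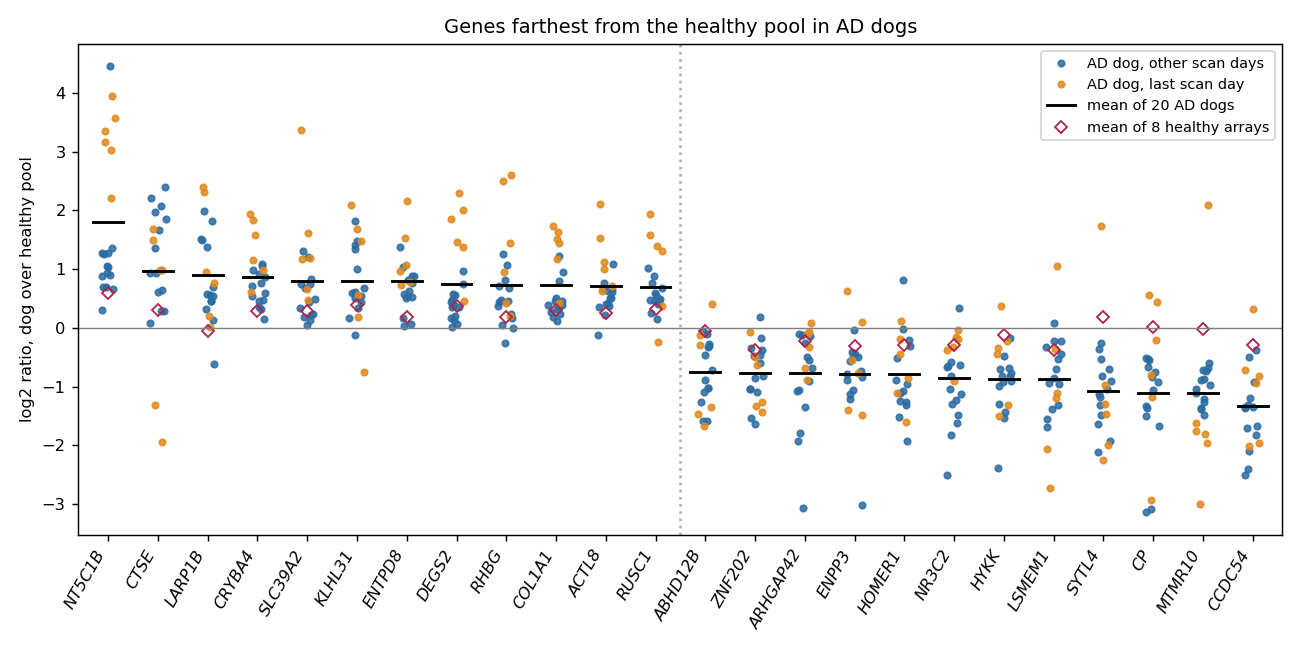
Log2 ratio of dog over healthy pool for the 12 genes highest and the 12 lowest among called genes that were not dye-biased. Each point is 1 of 20 AD dogs, in orange for the 6 dogs of the last scan day, bars are the AD means and open diamonds the means of 8 healthy arrays; the orange points of NT5C1B lie at or above 2.21, while its healthy mean is 0.60.

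Other large gaps were shared by the healthy dogs. CCL5, a chemokine for T cells and eosinophils, ran from -2.54 to 0.94 in AD dogs with a mean of -1.10 ± 0.86 (adjusted p = 0.00032), below 0 in 18 of 20. In the healthy dogs its mean was -1.01, from -2.13 to 1.34, and the AD minus healthy difference was -0.09 ± 0.38 (SE). PROCR, the endothelial protein C receptor, was above 0 in all 20 AD dogs with a mean of 0.82 ± 0.42, and its healthy mean was 0.70. CNKSR2, a signalling scaffold, had means of 1.02 and 0.63, and its pool channel was well above background on 11 of the 20 AD arrays. MNX1, DIS3L2, GALNT6, TAGLN and FBP2 also met the rule for dye bias. TAGLN, a smooth muscle actin-binding protein, lost its call without the last scan day (-0.50, adjusted p = 0.096) and after the correction for probe GC described next (-0.58, adjusted p = 0.079).

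The direction of a probe's ratio moved with its base composition. Across the 26796 probes, the share of G and C correlated with the mean log2 ratio at r = 0.44 in AD dogs and r = 0.39 in the 8 healthy dogs. These correlations are across probes that share arrays and labelling, so no p is given. Within single AD dogs r ranged from -0.23 in dog 11 to 0.48 in dog 7. Of the 7336 probes with at most 38.3% G and C, 4.31% were called higher and 32.9% lower. Of the 6437 probes with at least 51.7%, 33.9% were called higher and 5.36% lower. Correcting each array for probe GC with a loess curve, a setting chosen after these values were seen, left 7479 probes called, of which 5907 had been called before, all in the same direction. The 2-fold probes went from 67 to 55.

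Gene lists were therefore counted as measured and after the correction for GC. By the brightest probe of each gene, 10116 genes were tested and 33.4% were called, 16.7% higher and 16.6% lower. After the correction 27% were called. Each list below is set against these shares. Many single calls in the lists rested on few dogs. Without slide 1 (dogs 1 to 4) the calls of IL4, TNF, TLR9, CCR4, GP1BA, MS4A2, FOSB, IER3, ZFP36, GATA2, JUNB, BLNK, GZMA, CCL22, OSMR, CD3G, PER1, CR2, OAS1, BST2, BPGM, RSAD2, PAX5, LCK and IGJ were lost, with adjusted p from 0.072 for OAS1 to 0.25 for GZMA, and most of these were lost without another slide or scan day too. The calls of IL1RN and CD3E were lost without scan day 4 (adjusted p = 0.063 and 0.064), that of NR3C1 without slide 5 (0.064) and that of CD163 without slide 4 (0.067). Those of DUSP1, NFKBIA, IL10, CCL17, CD4, FOXP3, GZMK, KLRD1, CXCR2, MMP9 and TLR7 were kept wherever they were tested.

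Immediate early genes, which are transcribed within minutes of a stimulus, were among the lists farthest above the background share as measured. Of 16 tested, 9 were called higher and 1, IER2, lower (62.5%), with a median log2 ratio of 0.25 against 0.00 over all genes. Among those called, 4 met the rule for dye bias. DUSP1, a phosphatase that switches off MAP kinases, ran from -0.50 to 2.41 with a median of 0.74 and was above 0 in 17 dogs (mean 0.78 ± 0.69, adjusted p = 0.00081). ZFP36, which destabilises cytokine transcripts, had a mean of 0.49, FOSB 0.41 and JUNB 0.36. After the correction for GC only DUSP1 of the 16 stayed called, at 0.76, and the share fell to 6.25%. ZFP36 went to 0.23 (adjusted p = 0.14), FOSB to 0.25 (adjusted p = 0.056) and JUNB, whose probe is printed above, to 0.07 (adjusted p = 0.5).

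Genes of NF-kB feedback differed less between the settings. Of 15 tested, 4 were called higher and 0 lower (26.7%), and 3 were called after the correction (20%). NFKBIA, the inhibitor of NF-kB, was above 0 in 18 dogs with a mean of 0.35, and IL1RN, the antagonist of interleukin 1, in 17 dogs with 0.41. IER3 had a mean of 0.33. Glucocorticoid targets were called at 25%, PER1 and DUSP1 higher and the glucocorticoid receptor NR3C1 lower at -0.33. Among those called, 2 met the rule for dye bias. After the correction the share was 33.3%: PER1 was not called (0.19, adjusted p = 0.19), while DDIT4 (0.38) and TSC22D3 (0.19) were. Other NR3C1 probes read -0.34 (adjusted p = 0.0031), -0.20 (adjusted p = 0.051) and -0.03 (adjusted p = 0.72) as measured. Dog 2 stood highest of all dogs for this list, at a mean of 0.94 over the 12 genes, with FKBP5 at 3.30.

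**Figure D2:**
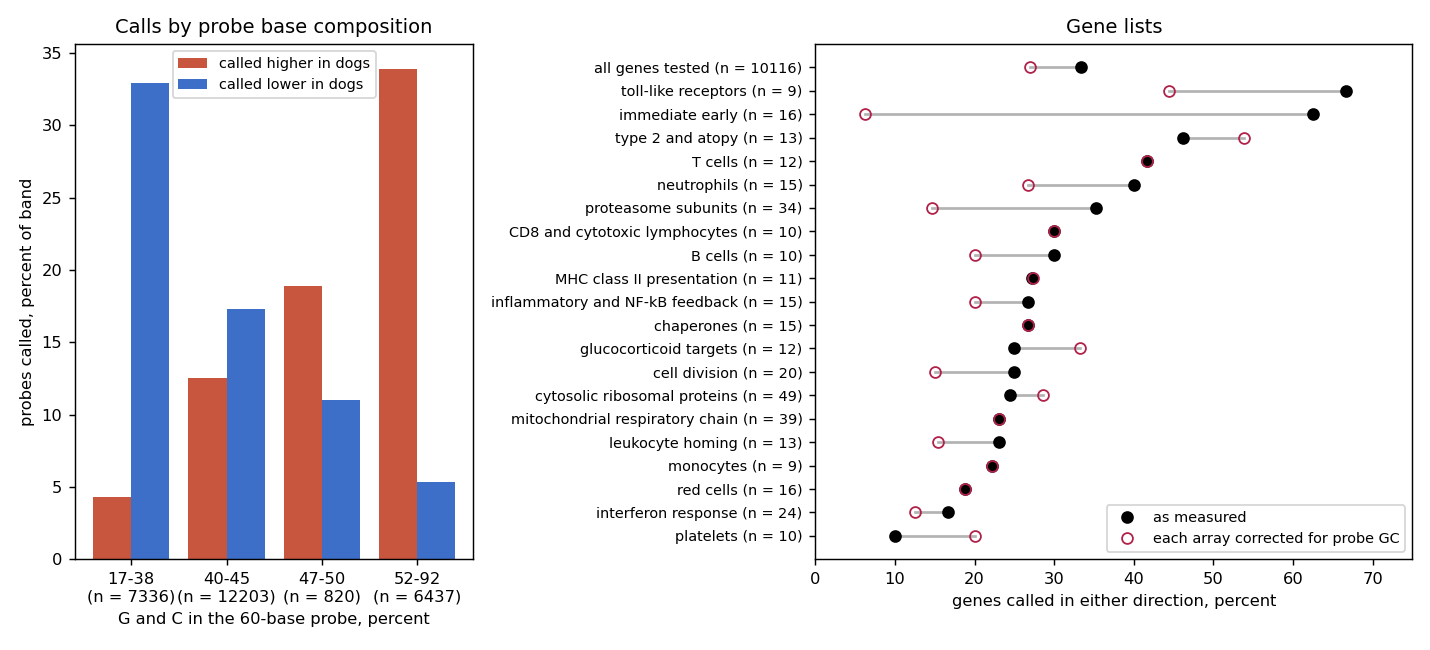
Left, percent of probes called higher (red) or lower (blue) in AD dogs within bands of probe GC. Right, percent of genes called in lists of 9 or more tested genes, as measured (filled) and after each array was corrected for probe GC (open); immediate early genes went from 62.5% to 6.25%, and all genes from 33.4% to 27%.

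Of the cytokines that the study also assayed in plasma, 5 of 7 were tested and 3 called (60%), and 2 after the correction for GC (40%). IL10, which restrains inflammation, ran from -0.35 to 1.76 with a median of 0.38 and was above 0 in 16 dogs (mean 0.46 ± 0.50, adjusted p = 0.0033). TNF, the main early inflammatory cytokine, had a mean of 0.38 ± 0.56, above 0 in 14 dogs (adjusted p = 0.019), but 0.20 after the correction for GC (adjusted p = 0.11). IL4, the defining T helper 2 cytokine, had a mean of -0.26 ± 0.41, below 0 in 13 dogs (adjusted p = 0.029). Its call was lost with slide as a random block (adjusted p = 0.054) and after normexp (-0.03, adjusted p = 0.89), and its mean was 0.01 without dye normalization. TGFB1 gave 0.23 (adjusted p = 0.054) and IFNG 0.21 (adjusted p = 0.23). IL2 and IL13 did not pass the filter on signal.

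The type 2 and atopy list held 13 tested genes, of which 2 were called higher and 4 lower (46.2%), and 7 after the correction for GC (53.8%). CCL17 was the farthest. It ran from -2.97 to 0.89 with a median of -0.86 and a mean of -1.07 ± 1.11 (SD, n = 20; adjusted p = 0.002), below 0 in 17 dogs. The 7 arrays of low detection spanned that whole range, with a mean of -1.96, and the other 13 ran from -1.53 to 0.13, with a mean of -0.60. The healthy mean was -0.17. CCL22, which shares its receptor, had a mean of -0.18 ± 0.25 (adjusted p = 0.034, and 0.064 with slide as a random block). The receptor CCR4 went the other way, at 0.24 ± 0.36 in 16 of 20 dogs (adjusted p = 0.031), and at 0.09 after the correction for GC (adjusted p = 0.41). OSMR, a subunit of the IL31 receptor, had a mean of 0.36 ± 0.61 (adjusted p = 0.033), and 0.14 without the arrays of low detection (adjusted p = 0.27). GATA3, IL5, IL4R, STAT6, CRLF2, CCR8 and CCR10 were not called, with means between -0.08 and 0.32. A second, dimmer IL4R probe was called higher, at 0.38 (adjusted p = 0.003). After the correction IL4R (0.21, adjusted p = 0.037) and CCR10 (-0.28, adjusted p = 0.00077) were called.

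A set of regulators that the study singled out on these samples was mostly lower than the pool, with 4 of 5 tested called lower (80%). The study named them for lower levels in AD than in healthy dogs, not for a gap from the pool. Its adjusted p was 0.085 in limma, over transcripts kept by a signal filter of its own. The study also reported lower PIAS1, RORA and SH2B1 in AD dogs by real-time PCR. As the study chose the genes on these arrays, their direction here is no independent evidence. The same holds for CCDC54, above, and THEMIS, below, which the study also listed as lower in AD dogs. RORA, a nuclear receptor of T helper 17 and innate lymphoid cells, was below 0 in all 20 AD dogs, from -1.50 in dog 4 through a median of -0.39 to -0.01 in dog 3. Its mean was -0.54 ± 0.43 (adjusted p = 0.00062) and its healthy mean 0.09. The RORA probe has 35% G and C. After the correction for GC its mean was -0.38 (adjusted p = 0.0017), with 2 dogs above 0. The other 2 RORA probes did not follow, at 0.02 (adjusted p = 0.92) and 0.25 (adjusted p = 0.086). SH2B1, an adaptor of cytokine receptors, was below 0 in 19 dogs with a mean of -0.31 ± 0.30 (adjusted p = 0.0034) and a healthy mean of 0.10, while its second probe read 0.19 (adjusted p = 0.19). VEGFA, the vascular growth factor, had a mean of -0.28 ± 0.33, and PIAS1 -0.26 ± 0.31, each below 0 in 17 dogs. VEGFA lost its call after normexp (adjusted p = 0.084), PIAS1 without scan day 4 (adjusted p = 0.094), and the other 4 PIAS1 probes, between -0.03 and 0.22, were not called. SMAD2, which carries TGF-beta signals, had a mean of 0.14 ± 0.28 in AD dogs (adjusted p = 0.11) and 0.56 in healthy dogs, and was called higher after the correction for GC (0.24, adjusted p = 0.0054). The AD minus healthy difference of RORA was -0.62 ± 0.17 (SE), with an adjusted p of 0.415 in limma over the 26796 probes tested here. PROC did not pass the filter on signal.

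**Figure D3:**
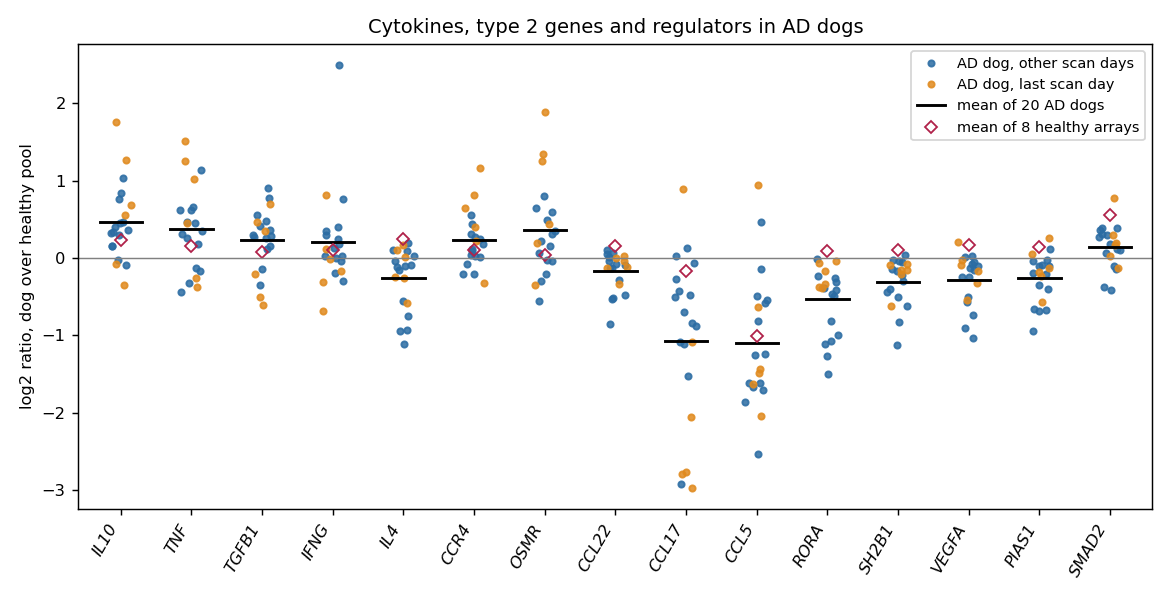
Log2 ratio of dog over pool, as measured, for plasma-assayed cytokines, type 2 genes and the regulators the study named. Each point is 1 of 20 AD dogs, in orange for the last scan day, bars are AD means and open diamonds the means of 8 healthy arrays; all 20 points of the RORA probe lie below 0, and the healthy mean of CCL5 lies beside its AD mean.

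Genes of the T cell list were called in both directions. Among them, CD4 was above 0 in 16 of 20 dogs with a mean of 0.64 ± 0.67 (adjusted p = 0.0024), and CD3E had 0.36. Which cells of the blood carried the CD4 transcript was not tested. CD3G (-0.33), LCK (-0.31) and THEMIS (-0.22) were called lower, so 2 of 12 rose and 3 fell. Of these called genes, 2 met the rule for dye bias. The other 2 LCK probes, at 0.20 and -0.03, were not called. FOXP3, the factor of regulatory T cells, was above 0 in 18 dogs with a mean of 0.42 ± 0.50 (adjusted p = 0.0059), and was the only one called of the 4 tested genes of that list. Its AD minus healthy difference was 0.29 ± 0.18 (SE).

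Of 10 cytotoxic genes 3 were called, all lower (30%). GZMK, a granzyme of memory CD8 and NK cells, ran from -1.75 to 0.77 with a median of -0.62 and was below 0 in 19 of 20 dogs (mean -0.70 ± 0.53, adjusted p = 0.0003). KLRD1, an NK receptor chain, had a mean of -0.70 and GZMA -0.46, the last called no longer without slide 1, dogs 1 to 4 (-0.29, adjusted p = 0.25). The other 7 genes of the list, CD8A at -0.03 and CD8B at 0.22 among them, were not called.

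B cell genes had 3 called lower and 0 higher of 10 (30%), and 2 lower after the correction (20%). BLNK, an adaptor of the B cell receptor, had a mean of -0.69, CR2, the complement receptor, -0.55, and PAX5, the factor of B cell identity, -0.52. CR2 was not called after the correction for GC (-0.40, adjusted p = 0.11). Among class II presentation genes 3 of 11 were called, all lower, led by DLA-DQB1 at -0.67 in 18 of 20 dogs. Of its other 4 probes 1 was called, at -0.31, and the rest read -0.32, -0.07 and -0.05. Of 5 plasma cell genes 1 was called (20%). This was IGJ, the joining chain of secreted antibody, with a mean of -0.64 (adjusted p = 0.047), and -0.49 after the correction (adjusted p = 0.096). The healthy mean of IGJ was 0.49. After the correction DERL3 alone of the 5 was called (-0.43, adjusted p = 0.036).

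Of 15 neutrophil genes 5 were called higher and 1 lower (40%), and 4 in all after the correction (26.7%). MMP9, gelatinase B, had a mean of 0.93 and CXCR2, the interleukin 8 receptor, 0.70. By their brightest probes both were dye-biased, with healthy means of 0.57 and 0.42. Other MMP9 probes were called higher too, at 0.90 and 1.14, with healthy means of 0.55 and 0.34. The probe at 1.14 was not dye-biased, and its pool channel was well above background on 14 of the 20 AD arrays. Of the 9 genes of the toll-like receptor list, which also held CD14 and MYD88, 3 were called higher and 3 lower (66.7%), and 2 and 2 after the correction (44.4%). Of those called as measured, 4 met the rule for dye bias. TLR7, which senses single-stranded RNA, had a mean of -0.86 and a healthy mean of -0.56, while TLR9, which senses CpG DNA, had 0.55 from a probe of 70% GC, and 0.31 after the correction (adjusted p = 0.061). Of 9 monocyte genes 2 were called, both lower (22.2%, and 22.2% after the correction), and 1 of these met the rule for dye bias. They were CSF1R and CD163, a scavenger receptor, which had a mean of -0.52. Keratinocyte and liver genes were listed for cells that blood should lack. Of the 12 keratinocyte genes 4 were tested and 0 called, between -0.22 and 0.08. Of 5 liver genes tested, FGA was called higher and ALB lower (40%), and only ALB after the correction (-0.60, adjusted p = 0.0064). A ratio of dog over pool does not show whether such cells were present.

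Of 49 cytosolic ribosomal protein genes 6 were called higher and 6 lower (24.5%), led by RPS24 at -0.58, and 6 and 8 after the correction (28.6%, against 27% of all genes). Of 39 respiratory chain genes 7 were called higher and 2 lower (23.1%), led by NDUFA7 at 0.52. After the correction 6 and 3 were called (23.1%), with NDUFA7 at 0.32 and UQCR10 at 0.65. Proteasome subunits were called in 12 of 34 genes as measured (35.3%), 9 of them lower, and in 5 of 34 after the correction (14.7%), with PSMB4 at -0.38 before and -0.23 after. Among those called as measured, 5 ribosomal, 3 respiratory chain and 9 proteasome genes met the rule for dye bias. Over all genes, 1591 of 3377 did.

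Ratios varied more between arrays of different dogs than between repeated spots of 1 array. The SD between the 20 dogs had a median of 0.41 over all probes, and 548 probes (2.05%) had an SD over 1. For 35 tested probes printed 5 times on each array, the SD between spots of 1 array had a median of 0.11 and the SD between dogs 0.42, larger for 31 of the 35. The SD between dogs also holds the labelling, hybridization and quality of separate arrays, which cannot be told apart from the dogs here. Part of the spread followed the slide: 648 probes (2.42%) differed between the 6 slides of AD arrays by limma's moderated F test, though 0 did after normexp, and 585 (2.18%) differed between the 4 scan days. The median SD within slides was 0.39.

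Among genes well above background in both channels on at least 18 arrays, the 10 widest fell into different patterns. In 3 of them 1 dog made the spread. MSH3, a mismatch repair protein, was at 9.66 in dog 20 and between -1.10 and 0.72 in the other 19, so its SD of 2.24 fell to 0.46 without that dog. In the same dog MGST3, a microsomal glutathione transferase, was at 7.73 and CEP57, a centrosomal protein, at 6.46. A second MGST3 probe read -1.71 in dog 20, and the other 3 CEP57 probes read 0.08 to 0.80, so other probes of these genes did not show it.

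In other genes the dogs fell apart into sets. EMR2, an adhesion receptor of myeloid cells, lay between -3.99 and -3.02 in 4 dogs and between -1.05 and 1.16 in 16. RAP1GAP2, a regulator of platelet granule release, lay between -2.28 and -0.60 in 12 dogs and between 1.36 and 2.67 in 8. The healthy dogs reached from -3.46 to 1.81 for EMR2 and from -1.54 to 1.91 for RAP1GAP2, so both ends occurred without the disease. ACTA2, smooth muscle actin, ran from -3.84 to 2.34, LY6G6C from -2.70 to 3.04, PKIG from -2.33 to 1.99 and ATP6V1E2 from -5.33 to 1.45. The second PKIG probe, also wide, had an SD of 1.52.

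**Figure D4:**
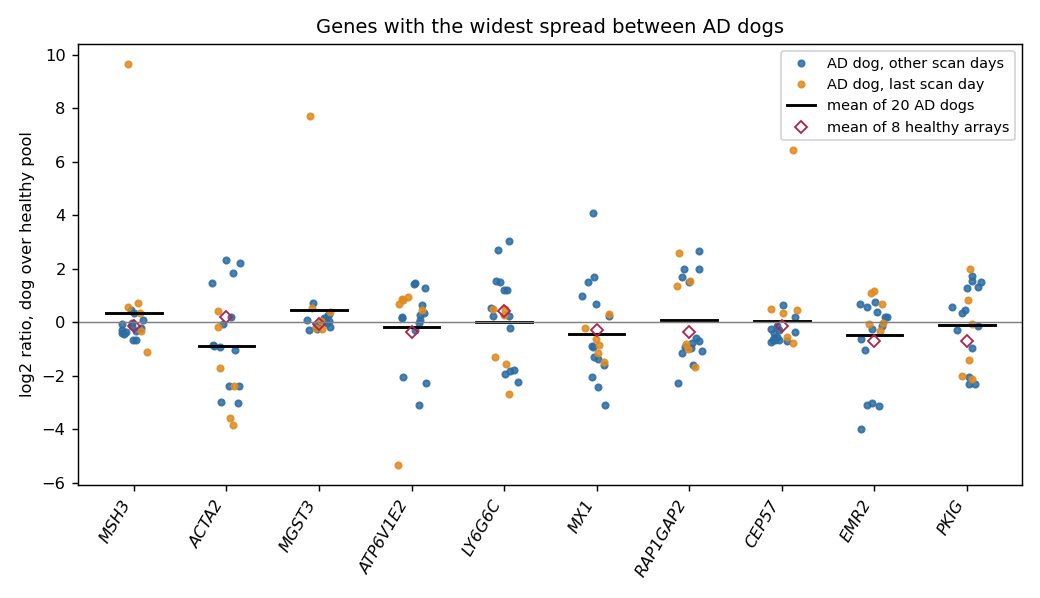
Log2 ratio of dog over pool for the 10 genes with the largest SD between AD dogs. Each point is 1 of 20 dogs, in orange for the last scan day, bars are means and open diamonds healthy means; MSH3, MGST3 and CEP57 each have 1 point, dog 20, far above the rest, and RAP1GAP2 has a gap of 1.96 between 2 sets of dogs.

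MX1, an interferon-induced antiviral GTPase, was wide in step with its list. It ran from -3.09 in dog 3 through a median of -0.88 to 4.08 in dog 9, and a second MX1 probe read 3.45 in dog 9. The mean over the 24 tested interferon response genes was 1.86 in dog 9, against 0.77 in the next dog and -0.60 in dog 3. In dog 9, 23 of the 24 genes were above 0 and 18 above 1, with RSAD2 at 3.38 and HERC5 at 3.19. The highest healthy dog stood at 1.56 for the same list. Across the 20 AD dogs, 3 genes of the list were called higher and 1 lower (16.7%), RSAD2 at 0.73, OAS1 at 0.59, BST2 at 0.32 and IRF9 at -0.31. IRF9 had a mean of 0.08 without dye normalization, and its second probe was called higher, at 0.20 (adjusted p = 0.025). RSAD2 was not called after normexp (adjusted p = 0.084), and BST2 was not called after the correction for GC (adjusted p = 0.26).

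Other lists had their extremes in other dogs. The genes of eosinophils, basophils and mast cells averaged 1.81 in dog 19 over 7 genes, against at most 0.38 in every other AD dog and 0.36 in healthy dogs. CPA3, mast cell carboxypeptidase, was at 5.81 there, GATA2 at 2.52 and FCER1A, the alpha chain of the IgE receptor, at 1.90, while the eosinophil receptors CCR3 (0.68) and IL5RA (0.45) lay within the range of the other dogs. Across all 20 dogs GATA2 and MS4A2 of the 7 were called (28.6%, and 14.3% after the correction), GATA2 higher at 0.38 and MS4A2 lower at -0.36, and both met the rule for dye bias. GATA2 was not called after the correction for GC (adjusted p = 0.21). Red cell genes ran from -1.25 in dog 9 to 1.24 in dog 20 and were called in 3 of 16, all higher as measured, with BPGM at 0.67, TRIM58 at 0.39 and SLC25A37 at 0.28. All 3 calls were lost without slide 1 (adjusted p = 0.17, 0.17 and 0.13), after normexp and with slide as a random block. Healthy dogs covered -0.92 to 1.04. Platelet genes ran from -0.97 in dog 17 to 0.60 in dog 9, with 1 of 10 called as measured and 2 after the correction, GP1BA at -0.38 (adjusted p = 0.037, and 0.07 with slide as a random block).

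**Figure D5:**
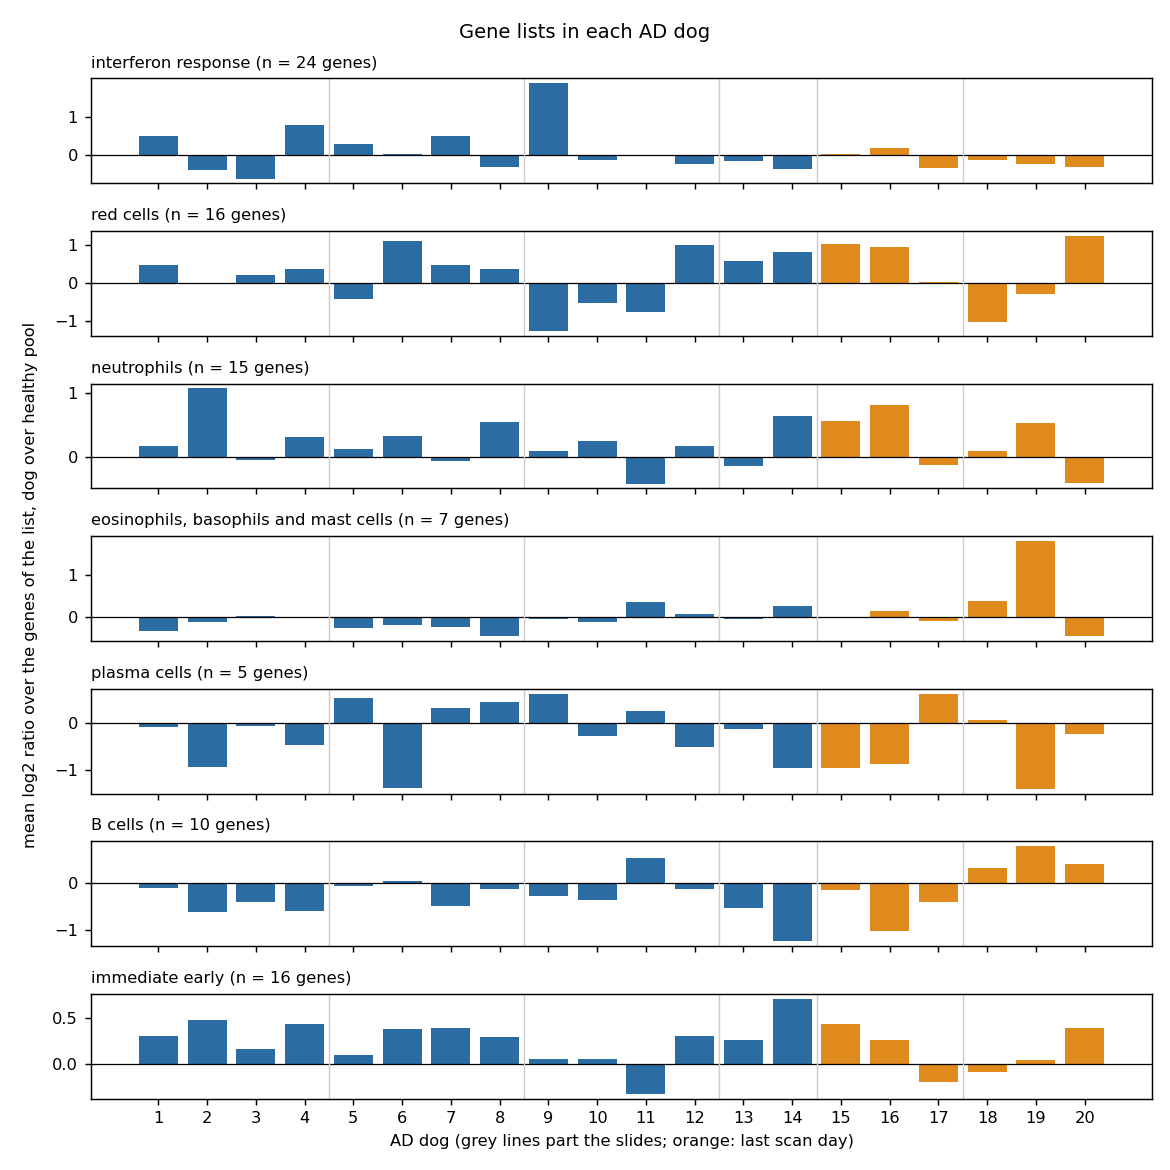
Mean log2 ratio of dog over pool over the tested genes of 7 lists in each of 20 AD dogs, orange for the last scan day; grey lines part the slides. Dog 9 stands at 1.86 for interferon response genes and dog 19 at 1.81 for genes of eosinophils, basophils and mast cells, and red cell genes run from -1.25 to 1.24.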

How the data were processed

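Canine 4x44K two-colour arrays of 28 dogs, 20 with AD and 8 healthy, were used. The authors extracted spot intensities with Agilent Feature Extraction (version 10.7.3.1 per the labels, 10.10.1.1 per the file headers), with background subtraction and Lowess dye normalization; the deposited processed signals are intensities on a linear scale. The authors' deposited value table holds log10 ratios of red over green, identical to the scanner files' log ratio. Here control spots were left out, flagged spots (0.0137% to 0.0525% an AD array) set missing, spots of a probe averaged, and log2 ratios centred on the array median over 26796 of 43603 probes with a median signal above 100 in either channel. No pseudocount was used. Of the probes, 21753 have a symbol in the files, 8 were named by RefSeq accession and 21842 have none. The means were tested against 0 with limma 3.58.1 in R 4.3.3 (lmFit, eBayes, Benjamini-Hochberg; 0.05), AD against healthy and slides likewise. Scripts were tested on simulated data. The number of arrays limits the precision.

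Named genes, each by its brightest probe, were the 12 highest and 12 lowest called and not dye-biased, 4 and 4 dye-biased, the 10 of largest SD, up to 4 members a list by size, and the cytokine, type 2 and study-named genes. Members and lists were chosen with earlier results of these data known. Alternatives were other filters on signal, normexp with loess, no dye normalization, other centring, the authors' table, slide or scan day as a random block, array weights, and leaving out single slides or scan days. A correction of each array for probe GC and a fit without the arrays of low detection were added after the data were seen. A gene that falls outside the rule and is named beside a list (IER2, THEMIS, CD8A, CD8B, FKBP5, HERC5, CPA3, FCER1A, CCR3, IL5RA) was chosen after its value was seen.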

Additional observations from a re-analysis of the deposited data

Results flagged for a closer look

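In the 8 healthy arrays, on which the naming of dye bias rests, 14 of 131 named genes had 1 array far from the other arrays, by the gap to its neighbour as a share of the whole range. Chance gives about 1 gene in 20. The share was 0.768 for ZNF202, whose lowest healthy value was -1.34, 0.724 for RSAD2, whose highest was 2.74, 0.663 for CCR10, 0.654 for SMAD2, whose highest was 1.37, 0.642 for CCL22, 0.628 for TLR2 and 0.621 for S1PR1. It was 0.609 for CRLF2, 0.596 for IL4R, 0.568 for GP1BA, 0.563 for SH2B1, 0.546 for CCR4, 0.543 for CNKSR2 and 0.543 for CSF1R.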

How the results depend on the processing

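Of 111 called named genes, 55 kept direction and call in every alternative in which they were tested; 15 of the 55 were left out by the filter on both channels. The 2-fold calls went from 67 to 230 without a filter on signal, 29 with both channels above 100, 116 with the dog channel well above background on at least 10 arrays and 2 after normexp, and those not dye-biased from 41 to 86, 17, 63 and 2, and to 66 where dye bias was named by the adjusted p alone. All calls went from 9139 to 6020 after normexp and 14180 with array weights. Leaving out single slides gave 3723 to 11191 calls, 57 to 102 past 2-fold and 40 to 78 not dye-biased, and single scan days 3723 to 11401, 61 to 105 and 47 to 70. After normexp, which adds an offset of 50, slide differences went from 648 to 0 and the median SD between dogs from 0.41 to 0.20; the cause was not tested. With the dog number as a replicate block, 0 probes differed between AD and healthy arrays (smallest adjusted p 0.166; 4746 probes with an unadjusted p under 0.05), and the numbers do not pair the arrays. Means changed sign for IL4 (0.00546) and IRF9 (0.0835) without dye normalization, for STAT6 after the correction for GC (-0.00540), and for IL5 after normexp (0.00149), with array weights (0.0428) and without the arrays of low detection (0.12). GATA3 gave -0.0424 without a filter, -0.0242 with the dog channel well above background, -0.0798 without dye normalization, -0.0121 not centred, -0.00460 with slide and -1.40e-05 with scan day as a random block, and -0.0201 after the correction for GC. Without single slides or scan days GATA3 ran from -0.0341 to 0.0573 and IL5 from -0.134 to 0.109. Signal limits the rest: 6697 tested probes were well above background on some arrays only.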
